A study of Mus musculus with 9 samples.

Results

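Lysosome and autophagy genes were followed in mouse embryonic stem cells (ESCs) that differ in their number of extra Myc copies. The 36 genes were chosen by function, as lysosomal enzymes, lysosomal membrane proteins, subunits of the proton pump, autophagy proteins and the transcription factors of the TFEB family. All 36 had a single identifier among the 35771 genes of the deposited table, and all 36 passed the filter on low counts, which left 13424 genes. RNA sequencing covered 9 libraries from ESCs of a mixed strain background, homozygous for the iMOS T1-Myc allele and carrying RERT. RERT is known as an allele that expresses a tamoxifen-dependent Cre recombinase from the RNA polymerase II large subunit locus. In iMOS T1-Myc cells recombination then leaves a mosaic of cells that carry different numbers of additional Myc and EYFP (yellow fluorescent protein) copies. The groups were 3 libraries of cells with 2 extra copies, 3 of cells with no extra copy, both sorted by EYFP level from induced mosaic cultures, and 3 of sorted uninduced cells of the same line. Induction was 20 µM 4-hydroxytamoxifen for 24 h, with sorting 24 h after its removal. The labels repeat that treatment for the cells they call uninduced, which are taken here as untreated. All cells came from the same starting line and were grown with LIF on gelatin, and recombination changed the copies that the sorted cells carry. Uninduced cells differ from the induced groups in the drug, in recombination and in neighbouring cells as well as in Myc. The labels do not say whether the 3 replicates of a group were separate cultures, so p-values measure the spread between these libraries, which may be technical.

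Lysosomes are acidic organelles in which hydrolases break down protein, glycans and lipids. A vacuolar proton pump (V-ATPase) acidifies them, and heavily glycosylated membrane proteins line them. Autophagy encloses cytoplasm in a membrane built with ATG proteins and marked with lipid-bound ATG8 proteins, and delivers it to lysosomes. TFEB and TFE3 are helix-loop-helix factors that enter the nucleus in starved cells and switch on lysosome and autophagy genes through an E-box-like motif, which MYC with MAX can also bind. In mouse ESCs, Tfe3 is also known for holding cells in the naive state.

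Library totals ran from 4165286 to 8872303 expected counts. Levels are given in CPM, counts scaled to a common library size, after TMM scaling, which matches libraries on the bulk of their genes. Myc itself stood at 138, 147 and 141 CPM with 2 extra copies, 31.8, 30.6 and 32.4 CPM with no extra copy and 11.5, 14.1 and 14.2 CPM in uninduced cells. It was 4.52-fold higher (log2 2.18, SE 0.0655, adjusted p = 6.81e-23) in cells with 2 extra copies than in cells with no extra copy, and cells with no extra copy were 2.36-fold above uninduced cells (adjusted p = 1.10e-11). The cells with no extra copy were therefore not at the uninduced Myc level. Mycn, a gene of the same family, ran the other way. It had 124.6, 126.3 and 127.2 CPM with 2 extra copies and 150.8, 151.2 and 156 CPM with no extra copy. In uninduced cells it had 186.3, 186.5 and 189.8 CPM. Mycn was 1.21-fold lower with 2 extra copies than with no extra copy (adjusted p = 3.34e-05). With no extra copy it was 1.23-fold lower than in uninduced cells (adjusted p = 2.22e-06). The folds of Myc are thus not those of both genes together. Of 8 ESC markers, all passed the filter, with summed levels of 2658 to 2806 CPM with 2 extra copies, 2911 to 2999 CPM with no extra copy and 2875 to 2926 CPM in uninduced cells. Of 8 macrophage markers, genes of a lysosome-rich cell type, none passed, Tyrobp had no count in any library, and their summed level stayed at or below 1.30 CPM in every library. Replicate 1 with 2 extra copies stood apart from the other libraries of its group, with a chi-square per degree of freedom of 2.61 and 2.97 against them, where the other pairs of replicates had 1.36 to 1.80. Levels leaned on transcript length to a different degree in each library. The log2 slope per doubling of length was 0.0046, -0.043 and -0.056 with 2 extra copies, -0.0014, 0.0068 and 0.019 in cells with no extra copy and 0.042, 0.014 and 0.014 in uninduced cells.

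Differences between groups were small. The largest difference among the 36 was 1.30-fold, for Npc1 with 2 extra copies against uninduced cells. A test of any difference among the 3 groups (quasi-likelihood F-test of edgeR, Benjamini-Hochberg adjusted over all genes tested, called below 0.05) called 16 of the 36, where it called 31.0% of all genes and 37.9% of the 9484 genes averaging 10 CPM or more, a level that all 36 reached. DESeq2 called 9 of the 36, beside 2234 of all genes. Without uninduced replicate 3 edgeR called 10, for which no count over all genes is given here. Among the 16, the highest mean was found with no extra copy in 11 genes, in uninduced cells in 4 and with 2 extra copies in 1. The lowest mean was in uninduced cells in 10 genes and with 2 extra copies in 6. Over all 36, the highest mean was with no extra copy in 21 genes, in uninduced cells in 8 and with 2 extra copies in 7. The lowest was in uninduced cells in 23, with 2 extra copies in 8 and with no extra copy in 5. This order was not counted over all genes tested. In the single comparisons 20 genes were called in none, 6 in 1, 10 in 2 and 0 in all 3, against 65.7%, 16.0%, 16.7% and 1.71% of all genes. The plot of levels by library shows the 16.

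**Figure D1:**
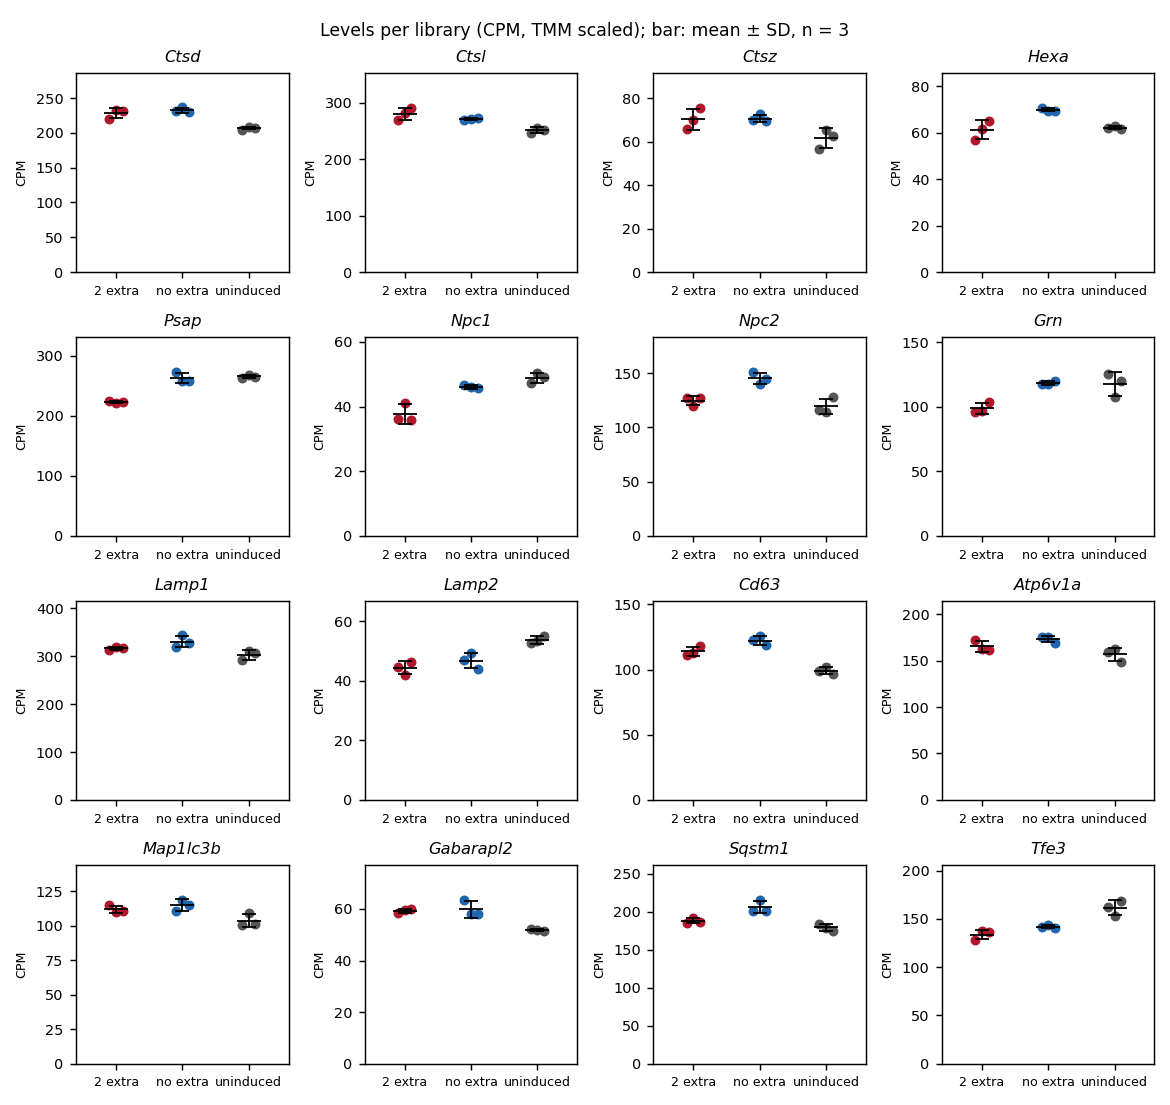
Level in CPM after TMM scaling (vertical axes, from 0) of the 16 genes called in the test of any difference, for cells with 2 extra copies, no extra copy and uninduced cells; points are libraries 1 to 3 from left to right, and the bars give the mean ± SD (n = 3). Psap lies at 222 CPM on average with 2 extra copies and at 258 CPM or more in every library of the other groups, while Cd63 is at 112 CPM or more in every induced library and at 102 CPM or less in the uninduced ones.

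Cells with 2 extra copies were set against cells with no extra copy, which shared the drug and the culture, to ask what goes with Myc copy number. Of the 36 genes, 6 were lower with 2 extra copies and 0 were higher, where 16.0% of all genes were called, 7.70% lower and 8.30% higher (overall 19.7%, with 8.51% lower and 11.2% higher, of genes averaging 10 CPM or more). The 6 were Psap, Npc1, Npc2 and Grn, grouped here as lipid handling and cofactors, with Hexa and the autophagy receptor Sqstm1. Their folds ran from 1.10 to 1.23. Counted by whether the 3 libraries of each group overlap, 9 of the 36 lay wholly lower and 0 wholly higher, beside 30.6% of all genes without overlap (15.2% lower and 15.4% higher). At an unadjusted p below 0.05 edgeR had 1 gene higher and 7 lower, beside 3831 of all 13424 genes in either direction. DESeq2 and limma-voom called 0 of the 36 higher, beside 658 and 1030 of all genes. The median log2 change of the 36 was -0.037, and that of all genes tested -0.012. A negative value was found in 25 of the 36, beside 7027 of the 13424 genes tested. DESeq2 called 3 lower, beside 417 of all genes. With each library's trend over transcript length removed, 3 were lower and 2, Ctsl and Gusb, were higher. Gusb was called without replicate 3 with 2 extra copies or replicate 3 with no extra copy (1 gene higher each), and Glb1 without replicate 1 with 2 extra copies (1 gene higher).

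Cells with 2 extra copies were next set against uninduced cells, a comparison that adds the drug, recombination and the mosaic culture to the Myc dose. It called 5 genes higher, the cathepsins Ctsd, Ctsl and Ctsz with Cd63 and Gabarapl2, and 5 lower, Psap, Npc1, Grn, Lamp2 and Tfe3. Over all genes 25.0% were called, 12.8% higher and 12.1% lower (overall 30.4%, with 16.4% higher and 14.0% lower, of genes averaging 10 CPM or more). Libraries did not overlap for 9 genes on the higher and 5 on the lower side, beside 38.5% of all genes (19.1% higher and 19.4% lower). The median log2 change was 0.067 for the 36 and -0.014 for all genes. A positive value was found in 25 of the 36, beside 6374 of the 13424 genes tested. The count of higher genes was 3 with DESeq2, 3 without replicate 3 with 2 extra copies, 3 without uninduced replicate 1 and 9 with the length trend removed. Of all genes DESeq2 called 1088 higher.

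Cells with no extra copy were set against uninduced cells, to ask what goes with induction in cells sorted as carrying no added copy. Myc was not held constant here, being 2.36-fold higher with no extra copy, and Mycn was 1.23-fold lower. Here 9 genes were higher and 1 lower, where 13.5% of all genes were called, 7.10% higher and 6.39% lower (overall 16.9%, with 8.67% higher and 8.28% lower, of genes averaging 10 CPM or more). The 9 were the cathepsins Ctsd and Ctsz, the sterol carrier Npc2, the membrane proteins Lamp1 and Cd63, the pump subunit Atp6v1a and the autophagy genes Map1lc3b, Gabarapl2 and Sqstm1. The gene that was lower was Tfe3. Libraries did not overlap for 18 genes on the higher and 6 on the lower side, beside 31.5% of all genes (16.1% higher and 15.4% lower). The median log2 change of the 36 was 0.12, against 0.0022 over all genes. Of the 36, 25 had a positive value, as in the comparison before, beside 6770 of the 13424 genes tested. At an unadjusted p below 0.05 edgeR had 17 higher and 4 lower, beside 3450 of all 13424 genes in either direction. DESeq2 called 4 higher and 0 lower, beside 399 and 407 of all genes. Leaving out replicate 2 with no extra copy, the deepest library, left 5 higher, as did leaving out uninduced replicate 1. Lower genes numbered 3 without replicate 1 with 2 extra copies, and 2 without replicate 3 of that group. The 3 comparisons share groups, so their values are given side by side and not as independent evidence.

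**Figure D2:**
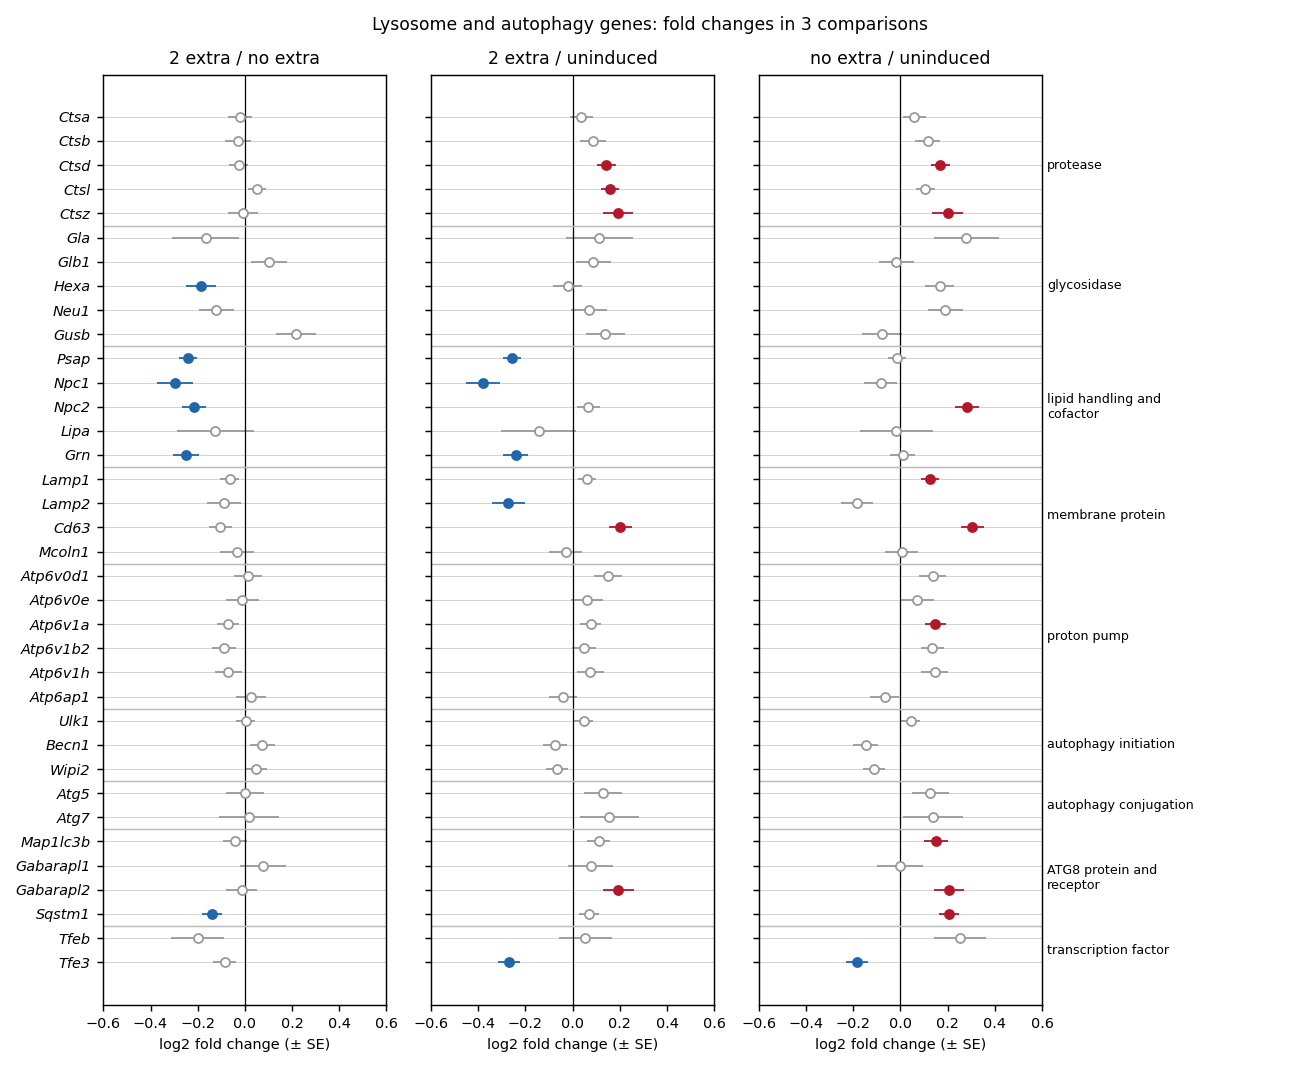
Log2 fold change ± SE (horizontal axes) of the 36 genes, grouped by role, with 2 extra copies over no extra copy (left), 2 extra copies over uninduced (middle) and no extra copy over uninduced (right). Filled points have an adjusted p below 0.05 and open points do not. Psap, Npc1 and Grn, of lipid handling and cofactors, lie left of 0 in the left and middle panels. Their log2 values on the left are -0.24, -0.30 and -0.25.

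These values are from sorted populations in bulk, where fewer cells of a type and less RNA per cell cannot be told apart. A list of 8 fibroblast markers also differed between groups. Its summed level was 46.9 to 53.6 CPM with 2 extra copies, 71.4 to 82.0 CPM with no extra copy and 30.5 to 31.6 CPM in uninduced cells. It was highest with no extra copy, as were 11 of the 16 genes called and 21 of all 36. The collagens Col1a1 and Col1a2 made up most of it, at means of 25.4 and 36.4 CPM with no extra copy, and 5 of the 8 passed the filter. Lum had no count with 2 extra copies or with no extra copy, and Dcn averaged 0.213 CPM with 2 extra copies and 0.440 CPM with no extra copy. Markers of extraembryonic endoderm, a tissue rich in lysosomes, summed to 49.7 to 62.1 CPM with 2 extra copies, 67.3 to 87.4 CPM with no extra copy and 70.8 to 73.7 CPM in uninduced cells, and 5 of 9 passed; Afp averaged 0 CPM with 2 extra copies and 0.0794 CPM with no extra copy. Trophectoderm markers summed to 129 to 137, 129.7 to 149 and 121 to 132 CPM in the same order of groups, and 4 of 7 passed. Of those 4, 2 were lower with 2 extra copies than with no extra copy (median log2 of the 4 -0.47), and 2 were higher with no extra copy than in uninduced cells (median 0.53). By their medians these markers too were highest with no extra copy. Of the 5 fibroblast markers, 2 were lower with 2 extra copies than with no extra copy, and 3 were higher in each induced group than in uninduced cells. Of the 5 endoderm markers, 2 were lower with 2 extra copies than with no extra copy, and 3 were lower with 2 extra copies than in uninduced cells. For these 3 marker lists the shares over all genes were 7.70% lower with 2 extra copies than with no extra copy. Against uninduced cells, 12.8% of all genes were higher and 12.1% lower with 2 extra copies, and 7.10% were higher with no extra copy. The ESC markers ran both ways. Of the 8, 5 were lower with 2 extra copies than with no extra copy (62.5%, beside 16.0% of all genes called). Against uninduced cells, 4 were higher and 2 lower with no extra copy (75.0%, beside 13.5%). Klf4, Nanog and Tfcp2l1 were called in both comparisons and highest with no extra copy, with log2 values against uninduced cells of 0.28, 0.18 and 0.54. They are a part of the list and do not stand for it. Over the 8 markers, with no extra copy against uninduced cells, 5 log2 values were positive and 3 negative, with a median of 0.11. The part of these marker levels in the values of the lysosome and autophagy genes was not tested.

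The E-box, CACGTG, is a sequence that both the TFEB family and MYC with MAX recognise, and promoter windows of these genes were searched for it. RefSeq windows on GRCm38.p6, from 250 bases before to 50 bases after each start, were at hand for 31 of the 36 genes. Atp6v1b2, Atp6v1h, Becn1, Ctsb and Npc1 had none in that table. Of the 31, 4 had more than 1 window, and a RefSeq start can lie inside the annotated span of its gene. The motif and its 2 longer forms read the same on both strands, and the longer forms contain the shorter. An E-box was present in 12 of the 31 genes (38.7%), against 12.0% of 10212 tested genes with a window and 8.09% of all 27025 genes in the table. The form with matching flanks, TCACGTGA, was present in 7 of 31 (22.6%), against 2.15% of tested genes. That form with a further G before and C after it, the consensus known for lysosomal genes, was in 0 of 31 and in 0.783% of tested genes. These genes were picked for lysosomal function, so the shares are a description. A match is a run of letters and not a shown binding site. The stretches below, read from 5′ to 3′ on the gene's strand, are shown because they hold the motif with flanks or more than 1 E-box before the start; capitals mark the motif. They lie at chr8:13159089-13159160 on the plus strand for Lamp1, chr8:3500437-3500491 plus for Mcoln1, chrX:134601182-134601244 minus for Gla, chr7:142387908-142387937 minus for Ctsd, chr2:164833749-164833772 plus for Ctsa and chr16:44139373-44139402 minus for Atp6v1a, all on GRCm38.p6. Those of Ctsd, Ctsa and Atp6v1a fall inside the annotated span of the gene, and that of Mcoln1 in part.
Lamp1: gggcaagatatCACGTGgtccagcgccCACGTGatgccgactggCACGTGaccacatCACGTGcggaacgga
Mcoln1: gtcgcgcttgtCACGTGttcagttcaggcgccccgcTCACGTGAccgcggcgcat
Gla: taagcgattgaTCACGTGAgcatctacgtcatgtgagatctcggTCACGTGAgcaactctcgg
Ctsd: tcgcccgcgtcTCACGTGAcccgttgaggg
Ctsa: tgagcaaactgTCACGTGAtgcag
Atp6v1a: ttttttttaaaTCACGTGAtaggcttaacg

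Lamp1 has 4 E-boxes within the 72 bases before its start, and Gla and Mcoln1 have 2 each before theirs. Ctsa has 1 before and 1 after its start, and Ctsd has a further E-box near the far end of its window. Atp6v1a and the other 6 genes, Atp6v0d1, Atp6v0e, Ctsl, Glb1, Atg5 and Atg7, have 1 each, as the plot of E-box positions shows. The E-boxes of Atp6v1a, Atp6v0e, Ctsl and Atg7 fall inside the annotated span of the gene. Of the 12 genes with an E-box, edgeR called 0 with 2 extra copies against no extra copy, beside 16.0% of all genes. At an unadjusted p below 0.05 it had 0 too, beside 3831 of all 13424 genes, and DESeq2 called 0, beside 1075. The 6 lower genes were 5 of the 19 with a window and no E-box, and Npc1, which has no window. Over all genes 7.70% were lower in that comparison. Median log2 changes of the 12 were -0.016 in that comparison, 0.099 with 2 extra copies against uninduced cells and 0.13 with no extra copy against uninduced cells. The 19 genes without one had medians of -0.088, 0.053 and 0.043 in the same comparisons. In cells with 2 extra copies against uninduced cells, 2 of the 12 genes with an E-box and 3 of the 19 without were called higher, beside 12.8% of all genes. With no extra copy against uninduced cells it was 3 of the 12 and 6 of the 19, beside 7.10%. This division of the 36 was made after their values were known and carries no test.

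**Figure D3:**
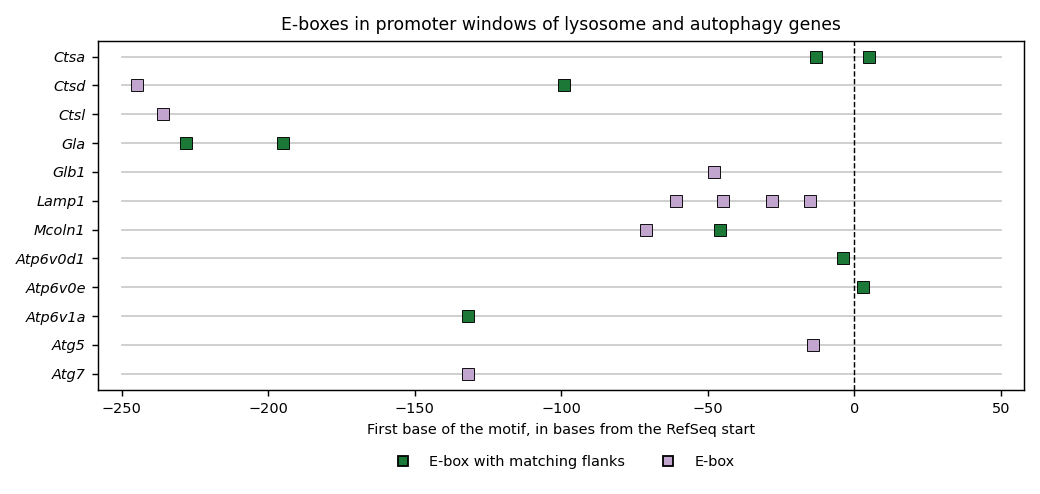
Position of each E-box in the promoter windows of the 12 genes that hold at least 1, in bases from the RefSeq start (dashed line; windows run from -250 to 50); green squares have matching flanks and pale squares do not. Lamp1 shows a run of 4 E-boxes with first bases at -61, -45, -28 and -15.

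Levels per length differed 40.6-fold among the 36, from 142 CPM per kb of transcript for Lamp1 to 3.50 for Gla, as means over the 9 libraries. Next after Lamp1 came Ctsd at 109.9, Cd63 at 105, Psap at 94.3 and Sqstm1 at 93.8 CPM per kb. At the low end, above Gla, were Lipa at 3.60, Atg7 at 7.05, Npc1 at 8.47 and Tfeb at 10.5 CPM per kb. Tfe3 stood at 46.1 CPM per kb, so of the 2 factors Tfe3 was the more abundant. The median of the 36 was 40.0 CPM per kb. The smallest count of any of these genes in a library was 35, so counting error weighs most on Gla and Lipa.

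**Figure D4:**
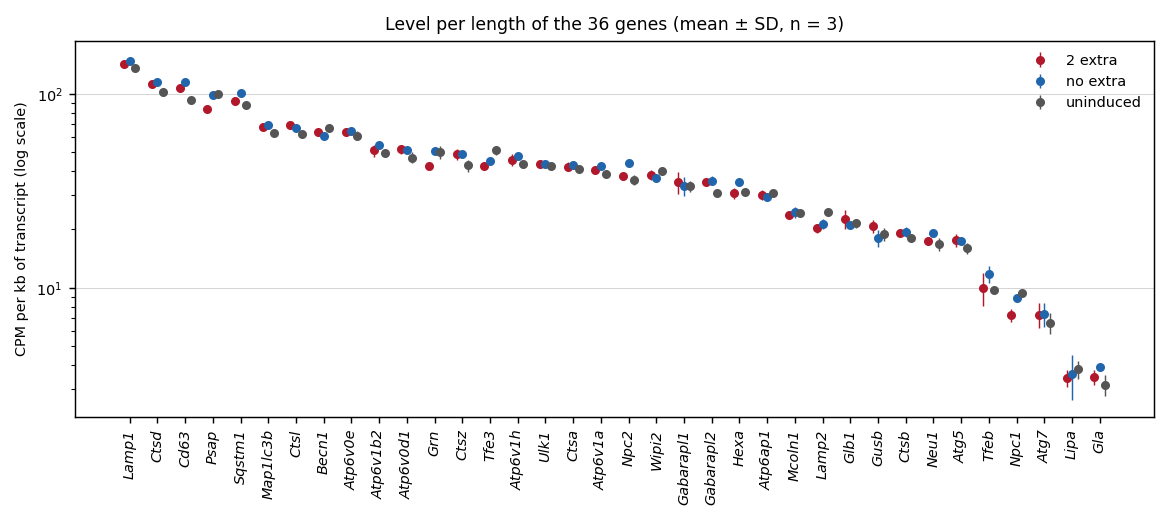
Level per length, in CPM per kb of the median annotated transcript (log axis), of the 36 genes in falling order of their mean; points are group means and bars the SD (n = 3) for cells with 2 extra copies, no extra copy and uninduced cells. The order runs from Lamp1 at 142 to Gla at 3.50 CPM per kb, and differences between groups are small beside those between genes.

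Of the 5 lysosomal proteases, 3 were higher with 2 extra copies, and 2 were higher with no extra copy, than in uninduced cells. These are 60% and 40%, beside 12.8% and 7.10% of all genes. Cathepsin D, an aspartyl protease (Ctsd, ENSMUSG00000007891; GRCm38 chromosome 7, 142375911 to 142388038), had 220.5, 233 and 232 CPM with 2 extra copies, 231, 236 and 229 CPM with no extra copy and 205, 208 and 208 CPM in uninduced cells. All induced libraries lay above all uninduced ones, and the induced groups overlapped each other. It was 1.10-fold higher (log2 0.14, SE 0.0394, adjusted p = 0.00663) with 2 extra copies and 1.12-fold higher (log2 0.17, SE 0.0393, adjusted p = 0.00271) with no extra copy than in uninduced cells. Cathepsin L, a cysteine protease (Ctsl, ENSMUSG00000021477; GRCm38 chromosome 13, 64359337 to 64370890), had 269, 282 and 290.3 CPM with 2 extra copies, 269, 270.2 and 272 CPM with no extra copy and 246, 256 and 252 CPM in uninduced cells. Again neither induced group overlapped the uninduced libraries, and replicate 1 was the lowest of the cells with 2 extra copies. It was 1.11-fold higher (log2 0.16, SE 0.0391, adjusted p = 0.00289) with 2 extra copies than in uninduced cells. The log2 value with no extra copy, 0.11, was not past the threshold (adjusted p = 0.0729, or 0.0470 without replicate 1 with 2 extra copies). Cathepsin Z, a carboxypeptidase (Ctsz, ENSMUSG00000016256; GRCm38 chromosome 2, 174427493 to 174439039), had 65.7, 69.9 and 75.3 CPM with 2 extra copies, 69.9, 72.6 and 69.5 CPM with no extra copy and 56.8, 65.5 and 62.6 CPM in uninduced cells. Uninduced replicate 1 was the lowest library of this gene, and the induced groups overlapped. Its folds over uninduced cells were 1.14 with 2 extra copies (adjusted p = 0.0269) and 1.15 with no extra copy (adjusted p = 0.0339). Both calls were lost with DESeq2, and the second also with limma-voom and with the length trend removed. The first was lost too without replicate 2 (0.0540) and 3 (0.186) with 2 extra copies, or replicate 1 (0.177) in uninduced cells. The second was lost without replicate 1 (0.0682), 2 (0.172) and 3 (0.0579) with no extra copy, or replicate 1 (0.222) and 3 (0.0646) in uninduced cells (adjusted p in brackets).

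Ctsa, the protective protein that stabilises Neu1 and Glb1, averaged 130.2 ± 7.17 CPM with 2 extra copies, 133 ± 5.95 with no extra copy and 127 ± 5.21 in uninduced cells (SD, n = 3 each). Ctsb, a cysteine protease, averaged 91.1 ± 2.22 CPM with 2 extra copies, 92.2 ± 5.50 with no extra copy and 85.9 ± 2.30 in uninduced cells. Neither was called in any comparison of the main edgeR fit. Ctsb was called, once the length trend was removed, with 2 extra copies over uninduced cells, at a log2 of 0.18 (adjusted p = 0.0186) in place of 0.085 (adjusted p = 0.269). Exons of tested genes on the other strand cover 17.4% of the exonic bases of Ctsa and 12.8% of those of Ctsb, and reads of the partners cannot be told apart without strand. Between the induced groups, the 5 proteases had log2 changes of -0.030 to 0.052, with adjusted p of 0.415 or more.

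The glycosidases, which trim sugars from glycolipids and glycoproteins, gave 1 call among 5 genes. It came with 2 extra copies against no extra copy (20%, near the 16.0% of all genes called). Hexa, the alpha subunit of beta-hexosaminidase (ENSMUSG00000025232; GRCm38 chromosome 9, 59539540 to 59565109), had 57.0, 61.8 and 65.0 CPM with 2 extra copies, 70.7, 69.6 and 69.5 CPM with no extra copy and 62.0, 63.1 and 61.7 CPM in uninduced cells. With 2 extra copies every library was below every library with no extra copy, and replicate 1 was the lowest of all. It was 1.14-fold lower (log2 -0.19, SE 0.0626, adjusted p = 0.0367) than with no extra copy. That call was lost in 9 of 20 alternative settings, among them leaving out replicate 1 (0.222) and 2 (0.0773) with 2 extra copies, or replicate 1 (0.0956), 2 (0.0955) and 3 (0.0698) with no extra copy (adjusted p in brackets). Against uninduced cells the log2 value of Hexa was -0.021 with 2 extra copies (adjusted p = 0.847), and with no extra copy it was 0.17 (adjusted p = 0.0661, or 0.0470 without replicate 1 with 2 extra copies). Neu1, a sialidase, averaged 43.4 ± 1.94 CPM with 2 extra copies, 47.3 ± 2.30 with no extra copy and 41.4 ± 3.06 in uninduced cells (SD, n = 3 each), and with no extra copy against uninduced cells its adjusted p was 0.0881, or 0.0452 without uninduced replicate 3. Gusb, beta-glucuronidase, averaged 42.4 ± 3.31 CPM with 2 extra copies, 36.9 ± 3.77 with no extra copy and 38.4 ± 3.00 in uninduced cells, and its 1.16-fold difference between 2 extra copies and none had an adjusted p of 0.0832. Without replicate 3 with 2 extra copies that p was 0.0413, and without replicate 3 with no extra copy 0.0373. Glb1, beta-galactosidase, averaged 54.5 ± 6.10 CPM with 2 extra copies, 50.5 ± 2.52 with no extra copy and 51.6 ± 2.58 in uninduced cells, with an adjusted p of 0.394 between 2 extra copies and none (0.0451 without replicate 1 with 2 extra copies). Gla, alpha-galactosidase A, averaged 10.9 ± 1.00 CPM with 2 extra copies, 12.3 ± 0.459 with no extra copy and 10.1 ± 1.25 in uninduced cells. Its largest difference, 1.21-fold with no extra copy over uninduced cells, had an adjusted p of 0.202.

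Of the 5 genes of lipid handling and cofactors, 4 were lower with 2 extra copies than with no extra copy (80%, beside 7.70% of all genes). Prosaposin (Psap, ENSMUSG00000004207; GRCm38 chromosome 10, 60277627 to 60302597) is cut into the saposins that help enzymes degrade sphingolipids. It had 224, 221 and 223 CPM with 2 extra copies, 273, 258 and 258 CPM with no extra copy and 263, 269 and 265 CPM in uninduced cells. The 3 libraries with 2 extra copies lay within a few CPM of each other and below all 6 others, while cells with no extra copy and uninduced cells overlapped. Psap was 1.18-fold lower (log2 -0.24, SE 0.0394, adjusted p = 4.25e-05) with 2 extra copies than with no extra copy and 1.19-fold lower (log2 -0.26, SE 0.0389, adjusted p = 6.92e-06) than in uninduced cells. With no extra copy against uninduced cells the log2 change was -0.014 (adjusted p = 0.864). Progranulin (Grn, ENSMUSG00000034708; GRCm38 chromosome 11, 102430315 to 102437048) is a secreted and lysosomal glycoprotein that binds prosaposin. It had 96.2, 97.0 and 104 CPM with 2 extra copies, 118, 118 and 120.0 CPM with no extra copy and 126, 108 and 119.8 CPM in uninduced cells. Here too the 3 libraries with 2 extra copies lay below the other 6, and the uninduced libraries were the most spread. Its folds were 1.19-fold lower (log2 -0.25, SE 0.0551, adjusted p = 0.00144) against no extra copy and 1.18-fold lower (log2 -0.24, SE 0.0540, adjusted p = 0.00100) against uninduced cells. Both calls of Psap and both of Grn held in all 20 alternative settings.

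Npc1 and Npc2 pass cholesterol out of the lysosome, Npc2 as a soluble carrier and Npc1 as the membrane protein that receives it. Npc1 (ENSMUSG00000024413; GRCm38 chromosome 18, 12189692 to 12236400) had 36.1, 41.2 and 35.8 CPM with 2 extra copies, 46.8, 45.9 and 45.7 CPM with no extra copy and 47.2, 50.3 and 49.1 CPM in uninduced cells. Its libraries with 2 extra copies lay below all others, with replicate 2 the nearest to them. Npc1 was 1.23-fold lower (log2 -0.30, SE 0.0760, adjusted p = 0.00607) than with no extra copy and 1.30-fold lower (log2 -0.38, SE 0.0735, adjusted p = 0.000195) than in uninduced cells. The call against no extra copy was lost with DESeq2 (adjusted p = 0.0758), with the length trend removed (0.0558) and without replicate 3 with 2 extra copies (0.0597). Npc2 (ENSMUSG00000021242; GRCm38 chromosome 12, 84754562 to 84773152) had 127, 119.6 and 127 CPM with 2 extra copies, 151, 140.0 and 145 CPM with no extra copy and 116, 114 and 128 CPM in uninduced cells. It was high in the 3 libraries with no extra copy, which overlapped neither other group, and the libraries with 2 extra copies overlapped the uninduced ones. Npc2 was 1.16-fold lower (log2 -0.22, SE 0.050, adjusted p = 0.00248) with 2 extra copies than with no extra copy. It was 1.22-fold higher (log2 0.28, SE 0.0492, adjusted p = 9.34e-05) with no extra copy than in uninduced cells, and both calls held in all 20 alternative settings. Against uninduced cells with 2 extra copies its log2 change was 0.066 (adjusted p = 0.357, or 0.0455 with the length trend removed and the replicate number as a block). Lipa, the lysosomal acid lipase, averaged 10.2 ± 1.03 CPM with 2 extra copies, 10.6 ± 2.78 with no extra copy and 11.3 ± 1.18 in uninduced cells (SD, n = 3 each) and passed no test.

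Among membrane proteins, Cd63 was higher and Lamp2 lower with 2 extra copies than in uninduced cells. Cd63, a tetraspanin of late endosomes, lysosomes and exosomes (ENSMUSG00000025351; GRCm38 chromosome 10, 128900989 to 128912822), had 112, 113 and 118 CPM with 2 extra copies, 123, 126 and 119 CPM with no extra copy and 98.5, 102 and 97.0 CPM in uninduced cells. All 6 induced libraries lay above the uninduced ones, and the libraries with 2 extra copies lay just below those with no extra copy. It was 1.15-fold higher (log2 0.20, SE 0.0489, adjusted p = 0.00234) with 2 extra copies and 1.24-fold higher (log2 0.30, SE 0.0483, adjusted p = 2.41e-05) with no extra copy than in uninduced cells, and both calls held in all 20 settings. Between the induced groups the log2 value was -0.10 (adjusted p = 0.152, or 0.0463 with library size alone as the scaling). Lamp2, a lysosomal membrane glycoprotein needed in autophagy (ENSMUSG00000016534; GRCm38 chromosome X, 38401357 to 38456454), had 44.7, 41.9 and 46.2 CPM with 2 extra copies, 46.9, 49.2 and 44.1 CPM with no extra copy and 52.6, 53.4 and 55.0 CPM in uninduced cells. Every induced library lay below every uninduced one. It was 1.21-fold lower (log2 -0.27, SE 0.0693, adjusted p = 0.00345) with 2 extra copies than in uninduced cells, with an adjusted p of 0.0529 by DESeq2. Its log2 value with no extra copy was -0.18 (adjusted p = 0.0700, or 0.0496 without replicate 1 with 2 extra copies).

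Lamp1, the other major lysosomal membrane glycoprotein and the gene with the run of 4 E-boxes (ENSMUSG00000031447; GRCm38 chromosome 8, 13159161 to 13175338), had 312, 319.6 and 317 CPM with 2 extra copies, 320.3, 344 and 327 CPM with no extra copy and 292, 312 and 307 CPM in uninduced cells. No pair of groups overlapped, though the nearest libraries of the cells with 2 extra copies and of each other group differed by under 1 CPM. Exons on the other strand cover 9.31% of its exonic bases. The rise with no extra copy over uninduced cells was 1.09-fold (log2 0.13, adjusted p = 0.0283) and was lost in 7 of 20 settings, among them leaving out replicate 2 (0.222) and 3 (0.0570) with no extra copy, or replicate 1 (0.167) and 3 (0.0548) in uninduced cells (adjusted p in brackets). Mcoln1, a calcium channel of the lysosome with 2 E-boxes, averaged 49.3 ± 2.31 CPM with 2 extra copies, 50.5 ± 3.39 with no extra copy and 50.1 ± 1.87 in uninduced cells (SD, n = 3 each) and had log2 changes of -0.034, -0.029 and 0.0056 in the 3 comparisons, none past the threshold.

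The proton pump has a membrane sector, V0, and a sector that binds ATP, V1. Atp6v1a, the catalytic V1 subunit (ENSMUSG00000052459; GRCm38 chromosome 16, 44085402 to 44139705), had 172, 163 and 161 CPM with 2 extra copies, 175, 176 and 169 CPM with no extra copy and 159, 163 and 148 CPM in uninduced cells. Libraries with no extra copy lay above all uninduced ones, and those with 2 extra copies overlapped both. It was 1.11-fold higher (log2 0.15, SE 0.0443, adjusted p = 0.0223) with no extra copy than in uninduced cells, a call lost with DESeq2 and with no filter on low counts. It was lost too without replicate 1 (0.0753) and 2 (0.109) with no extra copy, or replicate 3 (0.146) in uninduced cells (adjusted p in brackets). Its log2 value with 2 extra copies against uninduced cells was 0.076 (adjusted p = 0.225), and 0.15 with the length trend removed (adjusted p = 0.00797). Atp6v1b2, the other ATP-binding subunit, had 143, 135 and 155 CPM with 2 extra copies, 148, 155 and 159.8 CPM with no extra copy and 136, 137 and 147 CPM in uninduced cells, and only with no extra copy did all libraries exceed the uninduced ones. Its adjusted p with no extra copy against uninduced cells was 0.0653, with 0.0481 without replicate 1 with 2 extra copies and 0.0421 without uninduced replicate 3. Atp6v1h, a regulatory V1 subunit, averaged 82.7 ± 5.76 CPM with 2 extra copies, 86.9 ± 1.86 with no extra copy and 78.8 ± 1.78 in uninduced cells (SD, n = 3 each), and the V0 subunit Atp6v0d1 averaged 84.6 ± 4.69 CPM with 2 extra copies, 83.6 ± 2.95 with no extra copy and 76.5 ± 5.03 in uninduced cells. With 2 extra copies against uninduced cells Atp6v0d1 had an adjusted p of 0.0609. That p was 0.0492 without replicate 1 and 0.0387 without replicate 2 with 2 extra copies, and 0.0389 without uninduced replicate 3. Atp6v0e, a small V0 subunit, averaged 49.2 ± 2.59 CPM with 2 extra copies, 49.5 ± 0.472 with no extra copy and 47.0 ± 2.45 in uninduced cells, and the accessory protein Atp6ap1 65.6 ± 3.96 CPM with 2 extra copies, 64.2 ± 1.30 with no extra copy and 67.3 ± 2.31 in uninduced cells. In the comparison of no extra copy with uninduced cells, 5 of the 6 subunits had positive log2 changes, beside 6770 of the 13424 genes tested. Of the 6, 1 was called (16.7%, near the 13.5% of all genes).

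Of the 3 genes that start autophagy and the 2 of the conjugation system, the main edgeR fit called none in any comparison. Over all genes it called 16.0%, 25.0% and 13.5% in the 3 comparisons, in the order used above. Ulk1 and Becn1 were called under other settings. Ulk1, the initiating kinase, averaged 192 ± 3.14 CPM with 2 extra copies, 192 ± 6.53 with no extra copy and 186 ± 4.84 in uninduced cells (SD, n = 3 each). Its log2 value with 2 extra copies against uninduced cells was 0.046 (adjusted p = 0.445), and with the length trend removed it was 0.13 (adjusted p = 0.0190). Wipi2, which brings the conjugation machinery to the forming membrane, averaged 136 ± 8.15 CPM with 2 extra copies, 132 ± 2.50 with no extra copy and 143 ± 1.19 in uninduced cells. Becn1, a subunit of the lipid kinase complex, averaged 95.2 ± 3.14 CPM with 2 extra copies, 90.6 ± 3.25 with no extra copy and 99.9 ± 2.74 in uninduced cells. Its adjusted p with no extra copy against uninduced cells was 0.0528, and it fell below the threshold in 8 of 20 settings, with 0.0271 and 0.0442 without replicate 1 or 3 with 2 extra copies. Exons of Cntd1 on the other strand cover 43.9% of the exonic bases of Becn1, so its value is uncertain. Atg5 and Atg7, a conjugated protein and the activating enzyme of that system, averaged 41.3 ± 3.37 CPM with 2 extra copies, 41.1 ± 0.723 with no extra copy and 37.6 ± 2.56 in uninduced cells for Atg5 and 18.2 ± 2.66 CPM with 2 extra copies, 18.2 ± 2.55 with no extra copy and 16.5 ± 2.07 in uninduced cells for Atg7. The log2 values of these 5 genes ran from -0.15 to 0.16 over the 3 comparisons, with SE of 0.0410 to 0.127.

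Of the receptor and the ATG8 proteins, 3 of 4 rose with no extra copy over uninduced cells (75%, beside 7.10% of all genes). Sqstm1, the p62 receptor that links ubiquitinated cargo to ATG8 proteins (ENSMUSG00000015837; GRCm38 chromosome 11, 50199366 to 50210827), had 186, 192 and 187 CPM with 2 extra copies, 201, 216 and 201 CPM with no extra copy and 184, 179 and 175 CPM in uninduced cells. The 3 libraries with no extra copy were the highest, and the other groups did not overlap each other either. It was 1.15-fold higher (log2 0.21, SE 0.0414, adjusted p = 0.000567) with no extra copy than in uninduced cells, a call that held in all 20 settings. With 2 extra copies it was 1.10-fold lower (log2 -0.14, SE 0.0419, adjusted p = 0.0201) than with no extra copy, a call lost in 7 of 20 settings, among them leaving out replicate 1 (0.0611) and 3 (0.103) with 2 extra copies, or replicate 2 (0.201) with no extra copy (adjusted p in brackets). Its log2 value with 2 extra copies against uninduced cells was 0.068 (adjusted p = 0.247). Exons on the other strand cover 17.3% of its exonic bases.

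Gabarapl2, an ATG8 protein of the GABARAP branch (ENSMUSG00000031950; GRCm38 chromosome 8, 111940703 to 111953612), had 58.4, 59.5 and 59.8 CPM with 2 extra copies, 63.6, 58.1 and 57.9 CPM with no extra copy and 52.3, 51.8 and 51.3 CPM in uninduced cells. All induced libraries were above all uninduced ones, and the induced groups overlapped. It was 1.14-fold higher (log2 0.19, SE 0.0643, adjusted p = 0.0247) with 2 extra copies and 1.15-fold higher (log2 0.21, SE 0.0640, adjusted p = 0.0263) with no extra copy than in uninduced cells. Both calls were lost with DESeq2. The first was lost too without replicate 2 (0.0588) and 3 (0.0685) with 2 extra copies, or replicate 1 (0.0513), 2 (0.0647) and 3 (0.0630) in uninduced cells. The second was lost without replicate 1 (0.151) with no extra copy, or replicate 1 (0.0592), 2 (0.0771) and 3 (0.0720) in uninduced cells (adjusted p in brackets). Map1lc3b, the LC3 protein most used as an autophagosome marker (ENSMUSG00000031812; GRCm38 chromosome 8, 121590361 to 121598760), had 115, 110.4 and 111 CPM with 2 extra copies, 110.5, 119 and 115 CPM with no extra copy and 101, 109 and 101 CPM in uninduced cells. Uninduced replicate 2 lay near the induced libraries, and the induced groups overlapped. Its 1.11-fold rise with no extra copy over uninduced cells (adjusted p = 0.0400) was lost in 11 of 20 settings, among them leaving out replicate 3 (0.0523) with 2 extra copies, or replicate 2 (0.247) and 3 (0.0875) with no extra copy, or replicate 1 (0.168) and 3 (0.135) in uninduced cells. Gabarapl1 averaged 31.7 ± 4.10 CPM with 2 extra copies, 30.2 ± 3.25 with no extra copy and 30.1 ± 2.07 in uninduced cells (SD, n = 3 each) and passed no test.

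The 2 factors of the TFEB family differed in level and in change. Tfe3 (ENSMUSG00000000134; GRCm38 chromosome X, 7762560 to 7775202) had 128, 137 and 136 CPM with 2 extra copies, 142, 143 and 140.5 CPM with no extra copy and 163, 153 and 169 CPM in uninduced cells. The 6 induced libraries were below the 3 uninduced ones, and the libraries with 2 extra copies were below those with no extra copy. Tfe3 was 1.21-fold lower (log2 -0.27, SE 0.0461, adjusted p = 3.93e-05) with 2 extra copies and 1.14-fold lower (log2 -0.18, SE 0.0457, adjusted p = 0.00511) with no extra copy than in uninduced cells. The second had an adjusted p of 0.0526 by DESeq2, and the first held in all 20 settings. Between the induced groups its log2 value was -0.086 (adjusted p = 0.240). Tfeb averaged 23.1 ± 4.45 CPM with 2 extra copies, 27.2 ± 2.69 with no extra copy and 22.4 ± 1.08 in uninduced cells (SD, n = 3 each). Its log2 changes of -0.20, 0.053 and 0.25, in the order of the comparisons above, had adjusted p of 0.248, 0.774 and 0.134, and the first of these was 0.0342 without replicate 3 with 2 extra copies. These are transcript levels; where the factors sit in the cell, by which they are mainly controlled, was not measured.

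The rest of the pathway was read from 6 further lists of 153 genes, of which 144 passed the filter. With 2 extra copies against no extra copy, 1 was higher and 13 were lower, or 0.694% and 9.03%, beside 8.30% and 7.70% of all genes. Against uninduced cells, 11 were higher and 21 lower with 2 extra copies, or 7.64% and 14.6%, beside 12.8% and 12.1%. Cells with no extra copy against uninduced cells had 15 higher and 6 lower, or 10.4% and 4.17%, beside 7.10% and 6.39%. In either direction 9.72%, 22.2% and 14.6% were called in the 3 comparisons, beside 16.0%, 25.0% and 13.5% of all genes, so these lists together were near or below the background. Medians of the log2 change were -0.058, -0.031 and 0.031, beside -0.012, -0.014 and 0.0022 over all genes. DESeq2 called 0 higher and 2 lower in the first comparison, 5 and 8 in the second and 2 and 3 in the third. The 13 lower genes of the first comparison became 8 without replicate 2 and 5 without replicate 3 with 2 extra copies, and 5 and 7 without replicates 1 and 3 with no extra copy. The 1 higher gene became 2 without replicate 1 or replicate 3 with 2 extra copies, and 10 with the length trend removed. The 21 lower genes of the second became 12 without replicate 3 with 2 extra copies. In the third, the 15 higher genes became 5 and 7 without replicates 1 and 2 with no extra copy, and 8 without any of the uninduced libraries in turn.

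Of 35 other lysosomal enzymes tested, 5 were higher and 7 lower with 2 extra copies against uninduced cells (14.3% and 20.0%, beside 12.8% and 12.1% of all genes). Man2b1, an alpha-mannosidase, stood at 88.3 ± 2.86 CPM with 2 extra copies and 70.2 ± 2.99 CPM in uninduced cells, 1.26-fold higher (log2 0.33, SE 0.0559, adjusted p = 3.32e-05). It was also the 1 enzyme higher than with no extra copy, at 1.15-fold (adjusted p = 0.0107, or 0.0791 by DESeq2). In that comparison 2 enzymes were lower (2.86% higher and 5.71% lower, beside 8.30% and 7.70%). They were Scpep1 (log2 -0.21, adjusted p = 0.00567), lost without replicate 3 with 2 extra copies, and Ids (log2 -0.35, adjusted p = 0.0476), lost in 15 of 20 settings. Hyal2, a hyaluronidase, was 1.35-fold and Gaa, the lysosomal alpha-glucosidase, 1.23-fold higher than in uninduced cells (adjusted p = 9.60e-05 and 9.90e-05). Lgmn, an asparaginyl endopeptidase, was lower (log2 -0.37), as was Scpep1, a serine carboxypeptidase (log2 -0.23; adjusted p = 0.000696 and 0.00130). These 5 calls against uninduced cells held in all 20 settings. Against uninduced cells, 3 enzymes were higher in cells with no extra copy and 1 lower (8.57% and 2.86%, beside 7.10% and 6.39%). The lower one, Acp5, an acid phosphatase, was at 6.38 ± 2.11 CPM with no extra copy and 11.6 ± 1.61 CPM in uninduced cells (adjusted p = 0.00404).

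Of 24 genes of the lysosomal membrane and of sorting to it, 4 were lower and 0 higher with 2 extra copies against none. The lower ones are 16.7%, beside 7.70% of all genes by edgeR, and 8.30% of all genes were higher. At an unadjusted p below 0.05, 6 were lower and 0 higher, beside 3831 of all 13424 genes either way. DESeq2 called 0 higher, beside 658 of all genes. Against uninduced cells edgeR called 2 higher and 3 lower with 2 extra copies (8.33% and 12.5%, beside 12.8% and 12.1%). The sorting receptor Sort1 was 1.22-fold lower (log2 -0.29, SE 0.0583, adjusted p = 0.000376) with 2 extra copies, at 76.0 ± 5.18 CPM against 92.7 ± 3.20 CPM in uninduced cells. Igf2r, which carries enzymes tagged with mannose 6-phosphate, was 1.22-fold lower (log2 -0.29, SE 0.0591, adjusted p = 0.00109) than in uninduced cells. Both calls held in all 20 settings. Of 12 other proton pump genes, 3 were higher with 2 extra copies, and 5 were higher with no extra copy, each against uninduced cells (25.0% and 41.7%, beside 12.8% and 7.10% of all genes). All 5 calls with no extra copy were lost with DESeq2, and each also when some single library was left out. Of the 3 calls with 2 extra copies, only that of Atp6v1e1 held with DESeq2. The V1 subunit Atp6v1e1 was 1.24-fold higher (log2 0.31, SE 0.0514, adjusted p = 2.92e-05) with 2 extra copies in all 20 settings. In cells with no extra copy it was 1.12-fold higher (adjusted p = 0.0245), a call lost with DESeq2 and with the length trend removed. It was lost too without replicate 1 (0.118) and 3 (0.0820) with no extra copy, or replicate 1 (0.0947) and 3 (0.0744) in uninduced cells (adjusted p in brackets). Tcirg1, a V0 subunit, was 1.29-fold higher with no extra copy (adjusted p = 0.00815), a call lost with DESeq2 and without replicate 2 (0.0583) in uninduced cells.

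Of 36 other autophagy genes, 7 were higher with no extra copy than in uninduced cells (19.4%, beside 7.10% of all genes). Plekhm1, an adaptor for fusion of autophagosomes with lysosomes, rose (log2 0.32, adjusted p = 4.88e-05), and Atg2a, a lipid transfer protein, rose too (log2 0.25, adjusted p = 0.00208). Both calls held in all 20 settings. The rest of the 7 calls were all lost with DESeq2, and each also when some single library was left out. With 2 extra copies against no extra copy 4 of this list were lower (11.1%, beside 7.70%), among them Atg2a (log2 -0.23, adjusted p = 0.00535), a call lost with DESeq2 (0.0625), with the length trend removed (0.107) and without replicate 2 (0.0505) with 2 extra copies. Of 12 other selective autophagy receptors, 5 were lower with 2 extra copies, and 3 were lower with no extra copy, each against uninduced cells (41.7% and 25.0%, beside 12.1% and 6.39% of all genes). The mitophagy receptor Bnip3 had the largest change of all these lists, with 17.0, 18.6 and 15.8 CPM with 2 extra copies, 21.1, 18.5 and 20.0 CPM with no extra copy and 63.0, 44.7 and 55.3 CPM in uninduced cells. Against uninduced cells it was 3.17-fold lower with 2 extra copies, and 2.75-fold lower in cells with no extra copy (adjusted p = 1.52e-09 and 1.01e-08). A transcript of another annotated gene matches 94.2% of the Bnip3 transcript at 96.5% identity, so reads may be shared. Nbr1, a receptor related to Sqstm1, was 1.19-fold lower with 2 extra copies than in uninduced cells (adjusted p = 0.000106), and Bnip3l 1.21-fold lower (adjusted p = 0.000194). Of 25 genes of nutrient signalling at the lysosome, 2 were lower with 2 extra copies, and 1 was lower with no extra copy, than in uninduced cells (8% and 4%, beside 12.1% and 6.39% of all genes). Sesn2, a leucine sensor upstream of mTORC1, was 1.15-fold lower (log2 -0.20, SE 0.0407, adjusted p = 0.000437) with 2 extra copies and 1.21-fold lower (log2 -0.27, SE 0.0409, adjusted p = 9.38e-06) with no extra copy, and both held in all 20 settings. Between the induced groups edgeR called 0 genes of that list, beside 16.0% of all genes. At an unadjusted p below 0.05 it had 1, beside 3831 of all 13424 genes. DESeq2 called 0, beside 1075 of all genes.

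**Figure D5:**
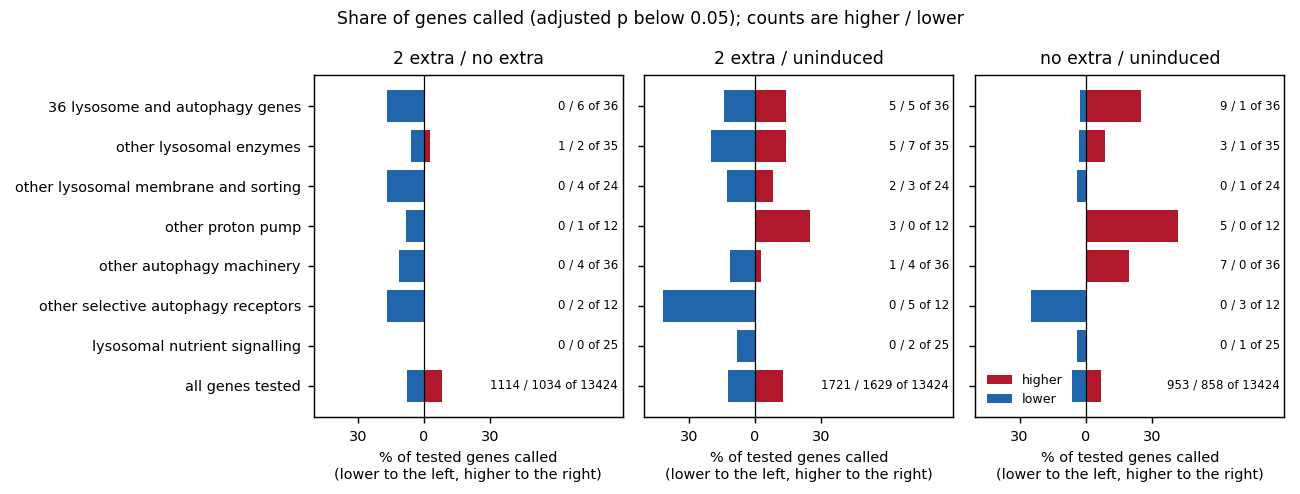
Share of tested genes called at an adjusted p below 0.05, in percent, higher (right, red) or lower (left, blue), for the 36 genes, the 6 further lists and all genes tested, in the 3 comparisons; the numbers are higher / lower of tested. With no extra copy over uninduced cells (right panel) 9 of the 36 genes were higher, or 25.0%, beside 7.10% of all genes.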

How the data were processed

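The authors deposited 1 table of expected counts, by gene, for 9 libraries. RSEM made them, as the file headers show, in version 1.17 according to the submitters' processing notes. Reads were single-end and 75 bp, per the labels. The build is GRCm38 with annotation release 84; cutadapt, Picard and limma are named without a role, and no aligner is given in the sources used here. RSEM shares a read among the genes it matches. From them, rounded counts, CPM, TMM factors and tests were computed here. Symbols, coordinates and transcript lengths came from GENCODE M21 on GRCm38, which named 35432 of 35771 identifiers.

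Differences were tested with edgeR 4.0.16 (robust quasi-likelihood F-test, R 4.3.3, filterByExpr by group) with 1 coefficient per group over all 9 libraries, adjusted by Benjamini-Hochberg over 13424 genes, which held 99.8% of counts. The script was tested on simulated counts. Adjusted p without a named tool are edgeR's. Alternatives were DESeq2 1.42.0, limma-voom (3.58.1), other scaling factors, other filters, only the groups compared, the replicate number as a block, a linear trend over transcript length removed, and each library left out, 20 settings in all. DESeq2 was given the genes that passed the filter. The genes and lists were chosen with earlier results of these data known. All 36 genes could be named, with values per library for those called; from other lists, up to 3 called genes per direction with the smallest p. Near copies were sought with minimap2 2.31-r1302 (95% identity over 50% of the transcript), and none matched the 36. No source says that counting used strand.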

Additional observations from a re-analysis of the deposited data

How the results depend on the processing

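Over 20 alternative settings, 2046 of 2160 values for the 36 genes kept their side of the threshold, 68 lost a call, 46 gained one and 0 reversed a call. Called in all 20 were Psap, Npc2 and Grn with 2 extra copies against none, Ctsd, Ctsl, Psap, Npc1, Grn, Cd63 and Tfe3 with 2 extra copies against uninduced, and Ctsd, Npc2, Cd63 and Sqstm1 with no extra copy against uninduced. Counts of the single further lists moved past 1.5 times in 137 of 720 combinations of list, direction, comparison and setting. With DESeq2, 2 extra copies against none gave 1075 (main 2148) all genes, 658 (main 1114) all genes higher, 417 (main 1034) all genes lower, 3 (main 6) the 36 lower, 0 (main 1) further lists higher and 2 (main 13) further lists lower. With DESeq2, 2 extra copies against uninduced gave 1889 (main 3350) all genes, 1088 (main 1721) all genes higher, 801 (main 1629) all genes lower, 3 (main 5) the 36 higher, 5 (main 11) further lists higher and 8 (main 21) further lists lower. With DESeq2, no extra copy against uninduced gave 806 (main 1811) all genes, 399 (main 953) all genes higher, 407 (main 858) all genes lower, 4 (main 9) the 36 higher, 0 (main 1) the 36 lower, 2 (main 15) further lists higher and 3 (main 6) further lists lower. With DESeq2, any of 3 groups gave 2234 (main 4159) all genes and 9 (main 16) the 36. With the length trend removed, 2 extra copies against none gave 1887 (main 1114) all genes higher, 2 (main 0) the 36 higher, 3 (main 6) the 36 lower, 10 (main 1) further lists higher and 8 (main 13) further lists lower. With the length trend removed, 2 extra copies against uninduced gave 9 (main 5) the 36 higher and 22 (main 11) further lists higher. With the length trend removed, no extra copy against uninduced gave 3 (main 1) the 36 lower. With the length trend removed and the replicate block, 2 extra copies against none gave 1958 (main 1114) all genes higher, 2 (main 0) the 36 higher, 3 (main 6) the 36 lower, 10 (main 1) further lists higher and 8 (main 13) further lists lower. With the length trend removed and the replicate block, 2 extra copies against uninduced gave 10 (main 5) the 36 higher and 23 (main 11) further lists higher. With the length trend removed and the replicate block, no extra copy against uninduced gave 2 (main 1) the 36 lower. With library size alone, 2 extra copies against none gave 22 (main 13) further lists lower. With upper-quartile factors, no extra copy against uninduced gave 2 (main 1) the 36 lower. With a minimum mean of 10 CPM, no extra copy against uninduced gave 2 (main 1) the 36 lower. With only the groups compared in the fit, no extra copy against uninduced gave 3 (main 1) the 36 lower. For 2 extra copies against none, leaving out each library in turn gave 1397 to 2564 all genes, 647 to 1098 all genes lower, 0 to 1 the 36 higher, 1 to 2 further lists higher and 5 to 13 further lists lower. For 2 extra copies against uninduced, leaving out each library in turn gave 3 to 6 the 36 higher and 12 to 19 further lists lower. For no extra copy against uninduced, leaving out each library in turn gave 1177 to 2201 all genes, 622 to 1083 all genes higher, 555 to 1118 all genes lower, 5 to 12 the 36 higher, 1 to 3 the 36 lower and 5 to 15 further lists higher. For any of 3 groups, leaving out each library in turn gave 10 to 16 the 36. The cause of these shifts was not tested. Groups share replicate numbers, but same-numbered libraries did not deviate together (correlations -0.102 to 0.0933 in 9 pairs), and a library correlated best with its own number in 2 of 18 cases. With the replicate number as a block, 2 of the 36 were lower with no extra copy against uninduced (main 1), and 10 higher; 17 of the 36 were called in the test of any difference. Depth limits Gla, Lipa and Atg7, the lowest of the 36 per length.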
